A study of Mus musculus with 17 samples.

Results

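The 38 genes described here encode proteins that make ribosomes: subunits of RNA polymerase I and its initiation factor, abundant nucleolar proteins, proteins of the small nucleolar ribonucleoprotein particles (snoRNPs), and assembly factors of the small and large ribosomal subunits. A gene was measured by probe sets annotated to its symbol alone, and its brightest probe set, on average over the arrays, stood for it. By this rule 37 of the 38 genes were measured, among 16785 genes tested. Mrto4, a large subunit assembly factor, is only on a probe set shared with 2 pseudogenes and was not measured alone.

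RNA came from sorted mouse hematopoietic stem cells (HSCs), the blood-forming cells at the root of all blood lineages, on 17 Affymetrix arrays in 5 groups. The fetal group (3 arrays) held cells of E15.5 fetal liver, sorted as lineage-negative, Mac-1 low, Sca-1+, c-Kit+, CD150+ and CD48- cells, with no genotype and no injection given. The adult cells were sorted in the same way without Mac-1, at day 7 (3 control and 3 KO arrays) or day 21 (4 control and 4 KO arrays) after injection of pIpC, a double-stranded RNA analog that raises interferon, often used to turn on an interferon-driven Cre. The controls are labelled wild type and received pIpC too. The titles of the KO arrays name a C/EBPa KO, whereas their genotype field and the design text name a Pu.1 knock-in (PU.1ki/ki), so the labels conflict. "KO" below means the arrays so titled. The Cre line, the ages, and whether replicates were separate animals or pools are not stated by the labels, and p-values therefore measure the spread between these samples, which may be technical.

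Ribosome assembly begins in the nucleolus, where RNA polymerase I copies ribosomal DNA into a long precursor RNA. Box C/D snoRNPs methylate that RNA, and box H/ACA snoRNPs convert uridines to pseudouridine. The small subunit processome and the large subunit factors then fold, cut and assemble the precursor with ribosomal proteins. Many of these genes are known targets of MYC, and adult stem cells of the blood are known for a low rate of protein synthesis.

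The promoters of the 4 genes on which the results below turn most are printed first, from 250 bases before to 50 bases after the annotated start, as given by RefSeq for GRCm38.p6. Capitals mark the E-box CACGTG, a site of MYC with its partner MAX, and the PU.1 motif GAGGAAGT, each searched on both strands; the C/EBP palindrome TTGCGCAA was searched as well. Pes1 (chr11:3963725-3964024, plus strand) holds an E-box and a PU.1 motif just after its start, Nop14 (chr5:34660099-34660398, minus strand) a PU.1 motif and Utp20 (chr10:88826765-88827064, minus strand) an E-box. Ddx21 (chr10:62602249-62602548, minus strand) is shown as the 1 gene called, and its window holds none of the 3 motifs.
Pes1: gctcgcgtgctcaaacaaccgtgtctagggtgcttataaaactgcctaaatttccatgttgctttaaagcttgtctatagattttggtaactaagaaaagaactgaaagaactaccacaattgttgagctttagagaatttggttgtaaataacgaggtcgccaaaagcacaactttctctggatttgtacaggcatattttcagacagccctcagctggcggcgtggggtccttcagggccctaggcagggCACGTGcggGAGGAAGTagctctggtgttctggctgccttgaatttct
Nop14: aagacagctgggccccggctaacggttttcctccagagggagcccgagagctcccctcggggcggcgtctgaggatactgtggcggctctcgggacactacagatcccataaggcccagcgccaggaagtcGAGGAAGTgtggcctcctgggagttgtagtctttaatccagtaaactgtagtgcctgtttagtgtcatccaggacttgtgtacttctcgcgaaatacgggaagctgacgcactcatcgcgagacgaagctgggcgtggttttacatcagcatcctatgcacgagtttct
Utp20: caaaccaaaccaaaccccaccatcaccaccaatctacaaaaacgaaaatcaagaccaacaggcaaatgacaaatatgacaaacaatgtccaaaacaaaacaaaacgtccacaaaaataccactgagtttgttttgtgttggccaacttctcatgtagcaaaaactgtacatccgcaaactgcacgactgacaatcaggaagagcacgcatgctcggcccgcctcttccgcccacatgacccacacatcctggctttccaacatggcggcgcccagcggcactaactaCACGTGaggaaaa
Ddx21: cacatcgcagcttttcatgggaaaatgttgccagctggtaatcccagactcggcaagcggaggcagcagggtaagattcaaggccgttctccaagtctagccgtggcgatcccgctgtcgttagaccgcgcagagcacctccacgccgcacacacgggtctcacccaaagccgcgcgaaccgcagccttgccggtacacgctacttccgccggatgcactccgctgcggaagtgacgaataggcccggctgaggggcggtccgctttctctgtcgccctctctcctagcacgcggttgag

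RefSeq windows were found for 33 of the 38 genes (37 windows). The E-box was in 13.5% of these windows (Nop2, Pes1, Rrn3, Utp20 and Wdr43), against 7.15% of all 32851 promoter windows. The PU.1 motif was in 18.9% of them (Nip7, Noc2l, Noc3l, Nop14, Pes1 and Wdr43), against 3.2% of all windows. Among 114 windows of further ribosome biogenesis factors it was in 1.75%. Noc2l has overlapping windows that hold the same PU.1 match. Counted by gene, the motif was in 18.2% of the 33 genes, against 3.69% of all genes with a window. The C/EBP palindrome was in none of the 37 windows and in 0.183% of all windows. A match describes letters in a window and says nothing about binding. The windows of these genes were also richer in G and C (median 59.7%, against 52.7% for all windows) and held a median of 22 CpG against 7, so that windows are not matched in composition.

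The arrays carried median intensities from 39.4 to 53.1, and 20.4% to 25.2% of probe sets lay at the lowest deposited value of 16. None of the 37 genes did so on any array. At day 21 the medians were 43.6, 47.7, 39.4 and 43.5 in control and 49.4, 46.9, 49.5 and 48.3 in KO. The root mean square deviation from the group mean was 0.62 to 0.82 in control and 0.44 to 0.58 in KO at day 21. Control replicate 3 of day 21 also had the lowest log2 3' to 5' ratio (−0.40). The part of these array differences in the results below was not tested. Cebpa, the gene for C/EBPa, was lower in KO at both days (log2 difference −2.73 and −2.82; joint adjusted p = 0.0426, but not called without control replicate 2, KO replicate 1 or KO replicate 3 of day 7, or without control replicate 1 or KO replicate 3 of day 21, with differences of −2.87 to −2.67 and adjusted p up to 0.0968). It was also not called with the floor share (0.145) or the 3' to 5' ratio (0.0863) as a covariate, without variance moderation, or with the replicate block plus the floor share (0.230). No label says whether its probe set lies in the deleted part. Spi1, which encodes PU.1, had 0.34 and −0.03. Kit read 442 to 905 on all arrays, whereas Slamf1, the gene for CD150, read 37.8 to 1049. Cd48, excluded by the gate, ranged from 16 to 658. It was highest on control replicate 3 of day 21, the array that lay farthest from its group. At day 7 Cd48 read 18.8, 16 and 16 in control and 60.9, 90.3 and 283 in KO. At day 21 it read 25.9, 18.6, 658 and 95.3 in control and 151, 308, 90.3 and 95.7 in KO. Fetal arrays read 210, 105 and 99.5. Of 5 progenitor markers, 2 were higher and 1 lower in KO at day 7 at an unadjusted limma p under 0.05. The shares of all genes were 3.74% and 2.98%, and limma called 0 of the 5. Markers of other cells differed between groups. On the fetal arrays 7 hepatocyte markers summed to 795, 11128 and 7457 (at most 1130 on any adult array), 6 endothelial markers to 2101 to 11438 (at most 728) and 6 macrophage markers to 1875 to 3812 (at most 1096). The median log2 level of 7 proliferation markers was 8.61 to 9.47 in fetal liver, 6.54 to 7.07 and 6.88 to 7.29 in control at day 7 and day 21, and 8.37 to 9.46 and 7.49 to 9.0 in KO. The summed erythroid markers were likewise higher in KO (6200 to 10092 at day 7, 6933 to 13832 at day 21) than in control (3642 to 5496 and 4029 to 8403), though the groups overlapped at day 21. On the fetal arrays these markers summed to 10062 to 13726. Of the 8 erythroid markers, 4 were called higher in fetal liver against control, and 0 in KO at either day or jointly. Of 6 megakaryocyte markers, 5 were higher in KO at day 21 at an unadjusted p under 0.05 and 1 was called jointly (adjusted p = 0.0448). Their median log2 level at day 21 was 7.40 to 7.96 in control and 8.22 to 8.84 in KO. Of 9 measured HSC markers, 3 had positive differences in KO at day 7 and 0 at day 21, where 3 were lower at an unadjusted p under 0.05 and none was called by limma. The part of these cells in the results below was not tested, and in such bulk samples fewer cells of a type and less RNA per cell cannot be told apart.

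One of the 37 genes, the RNA helicase gene Ddx21, was called, and it was lower in fetal liver HSCs than in adult HSCs of either genotype. In KO against control, most members had small positive differences and none was called. At day 7, 27 of 37 members (73.0%) lay above 0 with a median log2 difference of 0.13, beside 52.2% of all genes tested and a median near 0. At day 21 there were 28 of 37 (75.7%, median 0.35), beside 50.3% of all genes. For the mean of both days there were 31 of 37 (83.8%, median 0.24), beside 51.6%. All 37 members had a mean above the median value. Among genes above that value on 3 or more arrays, 53.5%, 54.8% and 55.3% lay above 0 at day 7, at day 21 and jointly. The median differences of those genes were 0.04, 0.07 and 0.06. The individual differences of the members were mostly within the replicate spread. limma called 0 of 37 members in each of these 3 comparisons, where it called 0% of all genes at day 7, 0.0179% at day 21 and 0.0715% jointly. At an unadjusted p under 0.05 there were 1, 3 and 4 members, all higher, beside 3.74%, 6.12% and 7.01% of all genes in that direction and 2.98%, 3.95% and 4.67% in the other.

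The size of these shares depends on the scaling. With each array centred on its median, the median of all genes itself moved to −0.16 at day 21 and −0.11 jointly, and 22 and 21 of the 37 members lay above 0 with medians of 0.19 and 0.13 (beside 35.9% and 38.1% of all genes); 28 and 31 lay above the median of all genes. With 1 array left out, the count at day 21 ran from 25 of 37 (median 0.30, without control replicate 1 of day 21) to 31 of 37 (median 0.27, without control replicate 3 of day 21). Without control replicate 1 of day 21 the joint count was 27 of 37, with a median of 0.15. At day 7 the count was 21 of 37 (median 0.06) without control replicate 1, the array with the lowest median deviation of these genes from their means over all arrays. Day 21 minus day 7 of the KO effect had 22 of 37 above 0 (median 0.18; 49.8% of all genes) and no call (0% of all genes). At an unadjusted p under 0.05 it had 2 members, both higher, beside 2.63% of all genes higher and 1.88% lower.

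Fetal liver set against the averaged control groups gave 22 of 37 above 0 (median 0.14; 52.7% of all genes), and against the mean of both KO groups 14 of 37 (median −0.07; 52.1% of all genes). With centred arrays the latter turned to 23 of 37 (median 0.05; 64.5% of all genes). Each of these comparisons called 1 member, Ddx21, while over all genes 3.65% and 2.54% were called, and 1.77% and 1.34% were called lower. The comparisons with control share the control arrays, and those with KO share the KO arrays. Both fetal comparisons also share the same 3 fetal arrays, so both calls of Ddx21 rest on the same fetal values. Values of comparisons that share arrays are not independent of each other. Over all 17 arrays, KO replicates 3 and 4 of day 21 had the highest median deviation of the members from their own means (0.30 on both), and control replicate 1 of day 7 the lowest (−0.20).

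**Figure D1:**
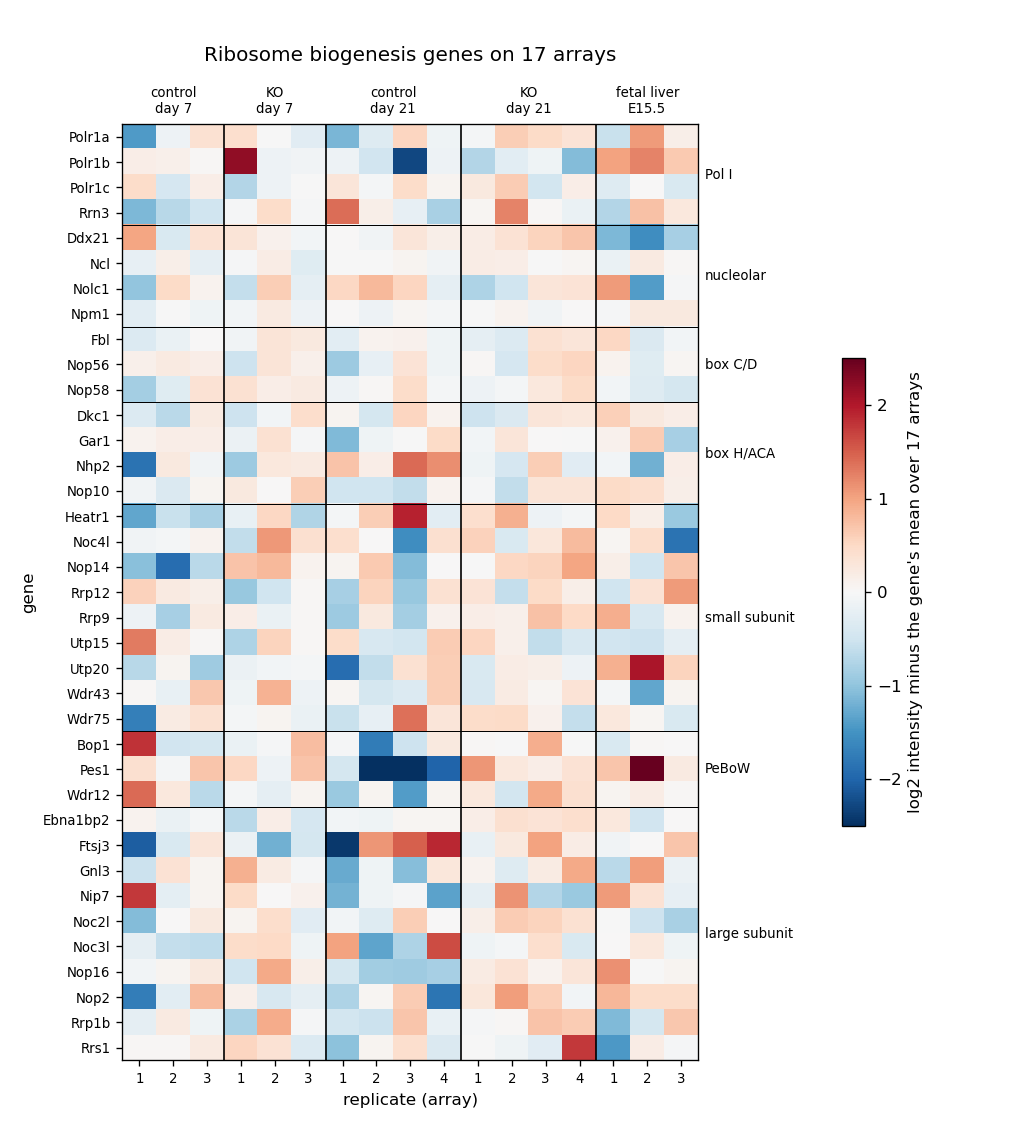
Log2 intensity of the 37 genes (rows, grouped by role) on the 17 arrays (columns, grouped by condition), each minus the mean of that gene over the 17 arrays; colours saturate at the ends of the scale bar. Ddx21 is blue on all 3 fetal arrays, and Pes1 is blue on the 4 control arrays of day 21.

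**Figure D2:**
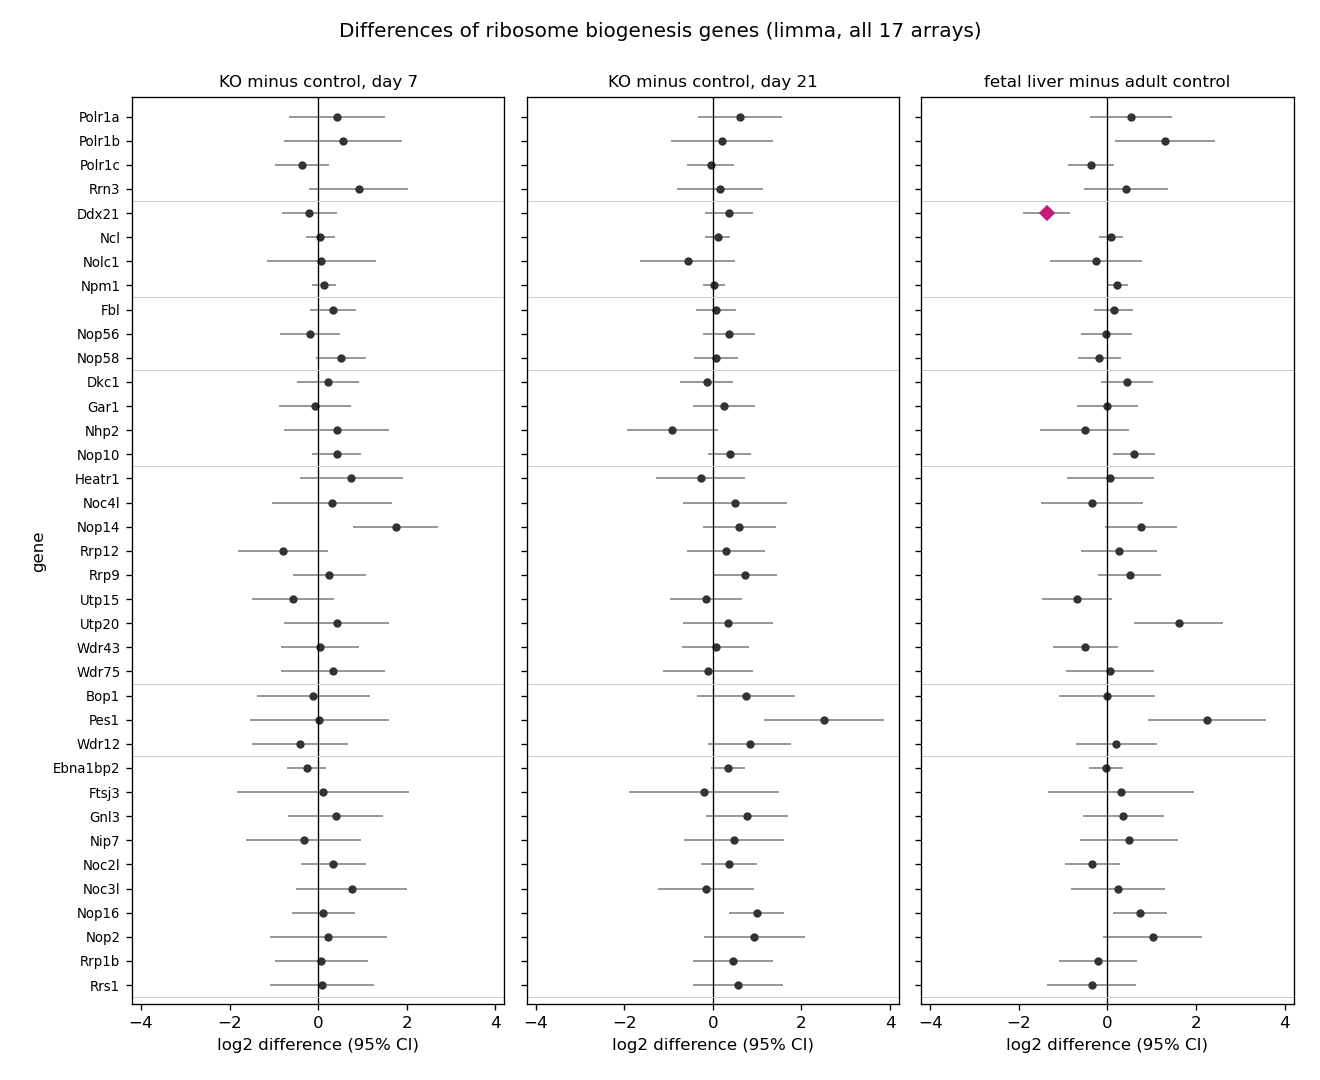
Log2 differences (points) with 95% confidence intervals (lines) from limma for the 37 genes in KO minus control at day 7 and day 21 and in fetal liver minus adult control; a magenta diamond marks an adjusted p under 0.05. The 1 diamond is Ddx21 in fetal liver, and 27, 28 and 22 of the 37 points lie to the right of 0.

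RNA polymerase I and its initiation factor were represented by Polr1a and Polr1b, its large catalytic subunits, Polr1c, a subunit shared with RNA polymerase III, and Rrn3, which brings the polymerase to its promoter. In KO, 3 of these 4 lay above 0 at each day and none was called; Polr1c was the exception (−0.36 and −0.05). Rrn3 read 108, 146 and 167 in control at day 7 and 231, 326 and 234 in KO. The day 7 groups of Rrn3 did not overlap, as for 7.48% of all genes in that direction, and the log2 difference was 0.91 (SE 0.52, adjusted p = 0.831). At day 21 it read 619, 261, 205 and 135 in control and 244, 556, 242 and 211 in KO, with 395 the highest of the 3 fetal arrays, so that a single array led each day 21 group and the groups overlapped (0.16). Polr1b had the largest fetal difference of the 4, 1.29 against adult control (SE 0.52, adjusted p = 0.220). Its fetal arrays (287, 337 and 227) lay above all 7 control arrays (29.5 to 161), as for 3.37% of all genes, but 1 KO array of day 7 read 665.

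Among the abundant nucleolar proteins, nucleolin (Ncl) and nucleophosmin (Npm1), which bind and chaperone nascent ribosomal RNA and proteins, had the smallest pooled SDs of the 37 genes, 0.16 and 0.13 on the log2 scale. Ncl differed by 0.05 and 0.11 in KO at day 7 and day 21 and by 0.08 in fetal liver, and Npm1 by 0.13, 0.03 and 0.23. Their second probe sets gave other values in fetal liver against control: Npm1 had 0.67 (adjusted p = 0.0512), and a second probe set of Ncl fell by 0.73 (adjusted p = 0.0458 over 31719 probe sets), where the brightest had 0.08. Nolc1, a chaperone of snoRNPs, had a negative difference at day 21 (−0.57). Its fetal arrays were far apart, from 257 to 1421.

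Ddx21, a nucleolar DEAD-box RNA helicase that acts in transcription and processing of ribosomal RNA, read 709, 526 and 868 in fetal liver. Adult control arrays read 3071, 1176 and 1975 at day 7 and 1561, 1444, 1902 and 1701 at day 21. KO arrays read 1933, 1651 and 1467 at day 7 and 1757, 1966, 2281 and 2494 at day 21. The highest fetal array (868) lay below the lowest of the 14 adult arrays (1176), and Ddx21 was the only 1 of the 37 genes whose fetal and adult arrays did not overlap. Of all genes, 2.68% lay lower without overlap against the control arrays alone and 3.53% against the KO arrays alone. Both are easier conditions than lying below all 14 adult arrays, for which the share of all genes was not computed. Mean intensity was 701 ± 171 (SD, n = 3) in fetal liver, against 2074 ± 951 (SD, n = 3) and 1652 ± 197 (SD, n = 4) in control at day 7 and day 21. On the log2 scale Ddx21 fell by 1.37 against adult control (95% confidence interval −1.90 to −0.85, SE 0.25, adjusted p = 0.00632) and by 1.45 against KO (SE 0.25, adjusted p = 0.00511).

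The fall of Ddx21 was smaller on its other probe set, with −0.61 (SE 0.35, adjusted p = 0.432) and −0.85 (SE 0.35, adjusted p = 0.295), neither of which passed. It no longer passed against adult control when only the 10 arrays compared entered the fit (−1.37, adjusted p = 0.0658). Fetal replicate 1, at 709 for Ddx21, had the lowest hepatocyte sum (795) and endothelial sum (2101) of the fetal arrays and the highest macrophage sum (3812); the part of these cells in the Ddx21 values was not tested. In KO against control Ddx21 differed by −0.20 at day 7 and 0.36 at day 21, with overlapping groups.

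The box C/D snoRNP proteins are Nop56, Nop58 and fibrillarin (Fbl), the methyltransferase. All 3 differed little between conditions, from −0.19 to 0.52 in KO and from −0.18 to 0.14 in fetal liver against control, and none was called. Nop58 read 839, 1214 and 1929 in control and 1958, 1679 and 1764 in KO at day 7, a difference of 0.52 (SE 0.26, adjusted p = 0.780). The 3 KO arrays lay close together, at or near the top of the wide control range. In fetal liver Nop58 read 1438, 1200 and 1106, and at day 21 it read 1375, 1530, 2057 and 1461 in control and 1387, 1452, 1807 and 2092 in KO. Against KO, fetal Nop58 differed by −0.48 (adjusted p = 0.349), and all 3 box C/D genes had negative differences there.

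The box H/ACA genes are Dkc1, the pseudouridine synthase, and its partners Nhp2, Gar1 and Nop10, which also serve telomerase RNA. None of the 4 was called in any comparison. Nop10 had positive differences in KO at both days (0.42 and 0.39; joint 0.40, SE 0.17, adjusted p = 0.384) and in fetal liver (0.60, SE 0.22, adjusted p = 0.163). Fetal arrays read 5457, 5216 and 4300 for Nop10, above all 7 control arrays (2561 to 4142), as for 3.37% of all genes. Its other probe set had 0.32, 0.63 and 0.51 in the same 3 comparisons, the same direction. Of the box H/ACA genes, Nhp2 had the largest difference between the days in control, with 307, 1299 and 1044 at day 7 and 1802, 1232, 2926 and 2472 at day 21 (1.42, SE 0.52, adjusted p = 0.516). It read 585, 1320 and 1284 in KO at day 7, 1021, 823, 1683 and 901 in KO at day 21, and 1050, 481 and 1244 in fetal liver. The lowest of all these Nhp2 values was on a day 7 control and the 2 highest on day 21 controls, and the second probe set of Nhp2 had 0.15 in that comparison. Nhp2 was also the member with the most negative difference in KO at day 21 (−0.91, and 0.35 on the other probe set).

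**Figure D3:**
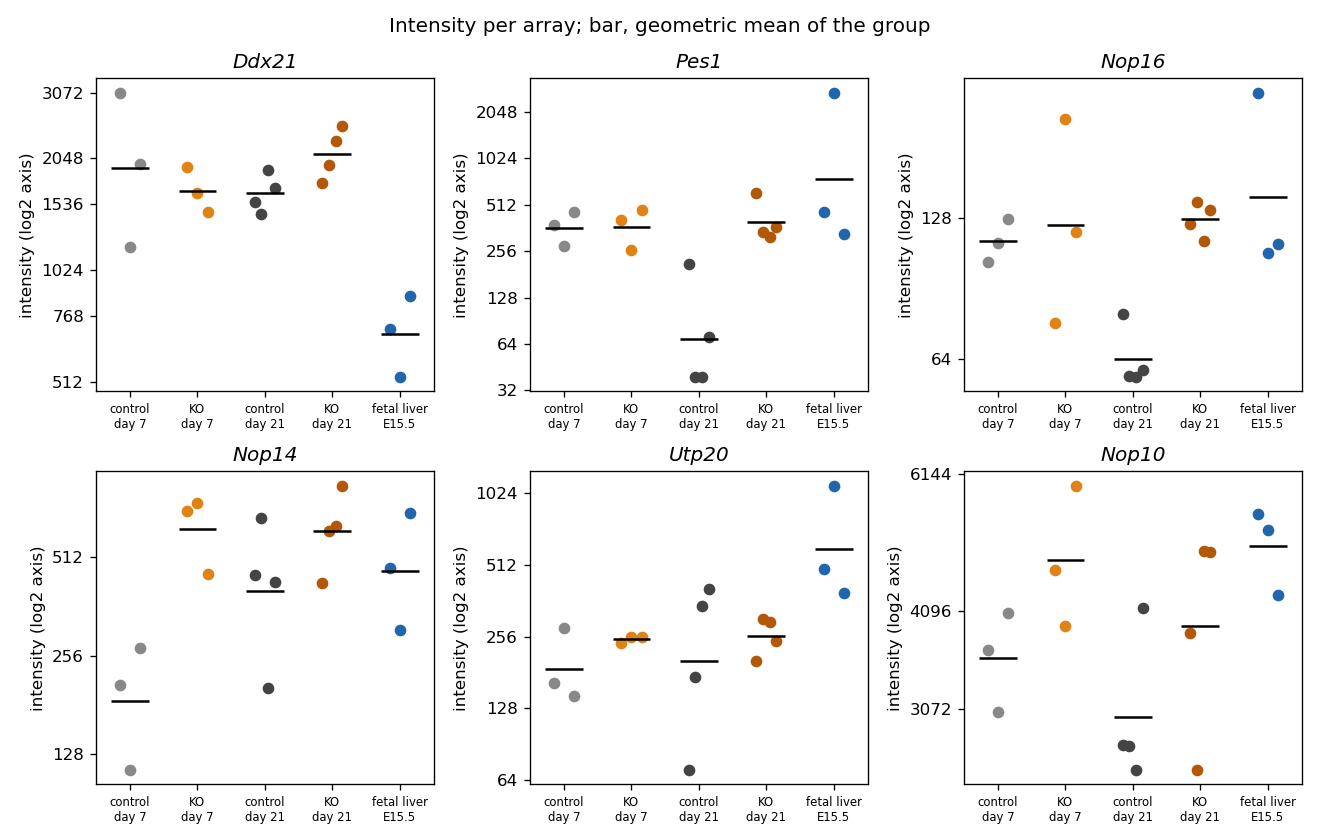
Intensity per array (points, log2 axis) in the 5 groups for Ddx21, Pes1, Nop16, Nop14, Utp20 and Nop10, with bars at the geometric mean of each group. Fetal Ddx21 points (526 to 868) lie below every adult point, and the control points of Pes1 and Nop16 at day 21 lie below the KO points of that day.

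The small subunit genes encode parts of the processome that forms on the nascent precursor: Heatr1, Utp15, Utp20, Wdr43 and Wdr75, the processome proteins Nop14 and Noc4l, Rrp9 of the U3 snoRNP, and Rrp12, which acts in nuclear export of the small subunit. Of the 9, 7 lay above 0 in KO at day 7 and 6 at day 21, with medians of 0.30 and 0.31 and no call. Nop14 led at day 7. It read 208, 114 and 271 in control and 709, 752 and 456 in KO. The groups did not overlap, as for 3 of the 37 members and 7.48% of all genes in that direction. Mean intensity was 198 ± 78.7 (SD, n = 3) and 639 ± 160 (SD, n = 3), and the log2 difference of 1.75 (SE 0.45, adjusted p = 0.407) did not pass over all genes.

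At day 21 control and KO overlapped for Nop14, with 451, 676, 204 and 432 against 427, 617, 637 and 848 (0.60). Its joint difference was 1.17 (SE 0.30, adjusted p = 0.170), the largest of the small subunit genes. Fetal arrays of Nop14 read 474, 306 and 697, above all day 7 controls, with 2 of the 3 inside the KO range of day 7. The gene has 1 probe set, so no second measurement exists. Control Nop14 differed by 1.12 between day 21 and day 7 (adjusted p = 0.525).

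Utp20 differed in fetal liver, where it read 492, 1099 and 389. Adult controls read 163, 279 and 144 at day 7 and 70.5, 173, 344 and 405 at day 21; KO arrays read 242, 254 and 256 at day 7 and 203, 304, 294 and 244 at day 21. The 3 fetal arrays lay above all 7 KO arrays, as for 3.7% of all genes, and above all but 1 of the control arrays. The log2 difference was 1.61 against control (SE 0.46, adjusted p = 0.0756) and 1.23 against KO (SE 0.46, adjusted p = 0.224). Without control replicate 4 of day 21, the array that overlapped, Utp20 passed against control (1.77, adjusted p = 0.0436).

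Rrp9 had the third smallest p of the members at day 21 in KO (0.73, SE 0.33, adjusted p = 0.492). It read 60.5, 134, 62.8 and 122 in control and 127, 124, 189 and 159 in KO. At day 7 Rrp9 read 104, 63.4 and 132 in control and 127, 101 and 116 in KO, and fetal arrays read 213, 86.3 and 120. At day 21, 1 control array lay inside the KO range and the other 3 lay below it. Of the small subunit genes, Heatr1 had the largest difference between the days in control, with 122, 202 and 172 at day 7 and 291, 461, 1129 and 250 at day 21 (1.45, SE 0.50, adjusted p = 0.502). These groups did not overlap, as for 2.75% of all genes, but the other 2 probe sets of Heatr1 had 0.20 and −0.40. KO arrays of Heatr1 read 264, 427 and 178 at day 7 and 403, 554, 274 and 291 at day 21, and fetal arrays 421, 331 and 157. Rrp12 was the 1 member lower in KO without overlap at day 7 (−0.80, adjusted p = 0.843; 6.39% of all genes), with 114, 89.3 and 84.5 in control and 39.4, 53.7 and 77.5 in KO. The remaining 4 small subunit genes ranged from −0.57 (Utp15, day 7) to 0.49 (Noc4l, day 21) in KO and from −0.69 (Utp15) to 0.05 (Wdr75) in fetal liver against control, where the second probe set of Wdr43 had 1.36 and its brightest −0.50.

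Pes1, Bop1 and Wdr12 form the PeBoW complex, which is required for maturation of the large subunit RNAs. The 3 had differences of 0.02, −0.11 and −0.41 in KO at day 7 and of 2.52, 0.74 and 0.83 at day 21. Pes1 had the largest KO difference of all 37 genes. It read 211, 38.9, 38.9 and 70.9 in control and 613, 342, 319 and 365 in KO at day 21, with no overlap, as for 3.14% of all genes. Mean intensity of Pes1 was 90.0 ± 82.3 (SD, n = 4) and 410 ± 137 (SD, n = 4), and the difference of 2.52 (SE 0.63, adjusted p = 0.208) did not pass over all genes.

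The day 7 arrays of Pes1 showed no such gap. They read 377, 275 and 461 in control and 410, 260 and 470 in KO, and fetal arrays read 463, 2741 and 332. It was the control arrays of day 21 that stood apart from every other group: control at day 21 differed from control at day 7 by −2.39 (SE 0.68, adjusted p = 0.390), without overlap, as for 3.38% of all genes. The KO effect of Pes1 differed between the days by 2.49 (SE 0.96, adjusted p = 1). Fetal liver against control had 2.24 (SE 0.62, adjusted p = 0.0637), which passed without fetal replicate 3 (2.83, adjusted p = 0.0429) or without control replicate 1 of day 21 (2.51, adjusted p = 0.0239) and was 1.31 without fetal replicate 2, the array at 2741. The other probe set of Pes1 was dim, with a mean log2 level of 4.52 against a floor of 4, and had 0.06 at day 21 and −0.58 in fetal liver.

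Bop1 and Wdr12 had negative differences between control at day 21 and day 7 too, at −0.81 and −0.89, with overlapping groups. In both genes the highest day 7 control was replicate 1, at 1252 for Bop1 and 1630 for Wdr12, against at most 264 and 737 on the other day 7 controls. In fetal liver against control Bop1 had −0.01 and Wdr12 0.20.

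Of the 10 measured large subunit factors, 8 lay above 0 in KO at each day, with medians of 0.11 at day 7 and 0.47 at day 21, and none was called. Nop16, a nucleolar protein of early large subunit particles, read 79.6, 58.9, 58.4 and 60.4 in control and 124, 138, 114 and 133 in KO at day 21. The replicates lay close together, at 64.3 ± 10.2 (SD, n = 4) and 127 ± 10.7 (SD, n = 4). The groups did not overlap, as for 3.14% of all genes in that direction. The log2 difference was 0.99 (SE 0.29, adjusted p = 0.268). At day 7 Nop16 read 103, 113 and 127 in control and 76.2, 208 and 119 in KO, and in fetal liver 237, 107 and 112. As with Pes1, control at day 21 was the low group. It differed from control at day 7 by −0.84 (SE 0.31, adjusted p = 0.525), without overlap, as for 3.38% of all genes. The other probe set of Nop16 had the opposite sign in both comparisons, −0.65 and 1.12.

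Ebna1bp2, a large subunit factor that binds nucleolar proteins, differed by 0.35 in KO at day 21 (SE 0.20, adjusted p = 0.556). It read 730, 715, 798 and 793 in control and 856, 1014, 979 and 1020 in KO, a small step with no overlap, as for 3.14% of all genes. At day 7 the order was mixed, with 811, 683 and 746 in control and 482, 861 and 576 in KO, and fetal arrays read 917, 554 and 777. The KO effects of both days differed by 0.61 (adjusted p = 1). Its 2 other probe sets lay at the floor on all arrays.

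Noc2l, which takes part in intranuclear transport of large subunit precursors, read 1249, 883 and 722 in fetal liver. KO arrays read 1319, 1708 and 1043 at day 7 and 1408, 1974, 1856 and 1658 at day 21, and the fetal level differed from them by −0.70 (SE 0.29, adjusted p = 0.271). Control arrays of Noc2l read 600, 1279 and 1492 at day 7 and 1204, 1011, 1937 and 1280 at day 21, and overlapped with fetal liver. Noc3l, its partner, was higher in KO at day 7 without overlap (189 to 290 against 132 to 176), as for 7.48% of all genes. Its log2 difference was 0.76 (SE 0.58, adjusted p = 0.890). Nop2, a methyltransferase of the large subunit RNA, had the largest fetal difference of the group at 1.02, with fetal arrays at 556, 429 and 432 inside the control range of 88.5 to 545 except for the highest. The other large subunit factors (Rrp1b, Rrs1, Nip7, Gnl3 and Ftsj3) ranged from −0.33 (Nip7, day 7) to 0.77 (Gnl3, day 21) in KO and from −0.36 (Rrs1) to 0.48 (Nip7) in fetal liver against control. Ftsj3, an RNA methyltransferase, had the largest spread between replicates of all 37 genes (pooled SD 1.17 on the log2 scale), and control arrays of day 21 alone ranged from 59.9 to 1173.

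In control, day 21 against day 7 gave 18 of 37 members above 0 (median −0.08; 48.2% of all genes; with centred arrays 21 of 37, median 0.08), with no call (0.0298% of all genes). At an unadjusted p under 0.05 there were 3 members higher (Heatr1, Nhp2 and Nop14) and 2 lower (Pes1 and Nop16), 5 in all beside 8.05% of all genes (3.28% higher and 4.77% lower). Polr1b was the other gene lower without overlap (146 to 161 at day 7, 29.5 to 132 at day 21). In all, 3 of the 37 members were lower without overlap, beside 3.38% of all genes.

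Second probe sets gave a check of these values within the same arrays. Of the 37 genes, 25 had more than 1 probe set above the floor. All probe sets of a gene had the same sign for 16 of these 25 at day 7, 13 at day 21, 12 in fetal liver against control and 7 in control at day 21 against day 7. Of the 35 further probe sets, 1 was called in any of these comparisons, that of Ncl in fetal liver against control. The median pooled SD of the 37 genes was 0.62, against 0.54 for all genes and 0.67 for the 11216 genes above the median level.

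A further 115 ribosome biogenesis factors lay beside the members. In KO they had positive differences for 71 of 115 at day 7 (61.7%, median 0.08), beside 52.2% of all genes. At day 21 there were 84 of 115 (73.0%, median 0.42), beside 50.3% of all genes. None was called at either day. At an unadjusted p under 0.05, 18 were higher and 1 lower at day 21, beside 6.12% and 3.95% of all genes. In fetal liver against control 69 of 115 lay above 0 (60%, median 0.20), beside 52.7% of all genes. Of the 115, 1 was called in each direction (1.88% of all genes higher and 1.77% lower). Exosc8, a subunit of the RNA exosome, rose by 2.28 (SE 0.37, adjusted p = 0.00286; lost with its most variable probe set, adjusted p = 0.905). Naf1, an assembly factor of box H/ACA particles, fell by 1.73 (SE 0.38, adjusted p = 0.0215; up to 0.119 without fetal replicate 2 or 3, and 0.0629 with only the arrays compared). Against KO, Krr1, a small subunit processome factor, fell by 0.86 (SE 0.18, adjusted p = 0.0223; up to 0.110 without fetal replicate 1 or 3 or KO replicate 3 of day 7), and the call was lost in 6 of 16 other settings: centred arrays (0.0544), its most variable probe set (0.104), only the arrays compared (0.0923), the floor share as a covariate (0.0565), the replicate block (0.0600) and the block plus the floor share (0.140). Control at day 21 against day 7 had 42 of 115 above 0 (36.5%, median −0.19), beside 48.2% of all genes and 48.6% of the 37 members.

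The 44 measured cytosolic ribosomal protein genes had medians of 0.07 at day 7, near 0 at day 21 (22 of 44 above 0) and 0.06 in fetal liver against control. The 76 mitochondrial ribosomal protein genes had medians of 0.45 (64 of 76 above 0), 0.46 (54 of 76) and 0.65 (65 of 76). Of all genes, 52.2%, 50.3% and 52.7% lay above 0 in these comparisons. limma called none of either list in these 3 comparisons. At an unadjusted p under 0.05, 7, 7 and 15 of the 76 mitochondrial genes were higher (beside 3.74%, 6.12% and 10% of all genes) and 0, 1 and 0 lower (beside 2.98%, 3.95% and 6.77%). For the 44 cytosolic genes there were 5, 3 and 4 higher and 0, 0 and 3 lower.

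Of the MYC family, Mycn was higher in fetal liver than in adult control (1.47, adjusted p = 0.0458), with fetal arrays at 1651, 815 and 712; that call was lost without any 1 of 14 of the 17 arrays (adjusted p up to 0.189), and kept without KO replicate 3 of day 7, control replicate 1 of day 21 or KO replicate 3 of day 21. It was also lost in 9 of 16 other settings (up to 0.350), the replicate block among them (0.0730). Myc differed by −0.79 against control (adjusted p = 0.0800) and fell by 1.06 against KO (adjusted p = 0.0280), which was lost without fetal replicate 1 or 3, KO replicate 1 or 2 of day 7 or KO replicate 3 of day 21 (up to 0.101), with centred arrays (0.0804), with the replicate block (0.0663) and with the block plus the floor share (0.0549). In KO against control Mycn had 1.16 at day 7 (adjusted p = 0.651) and 0.60 at day 21, and Myc 0.20 and 0.33.

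**Figure D4:**
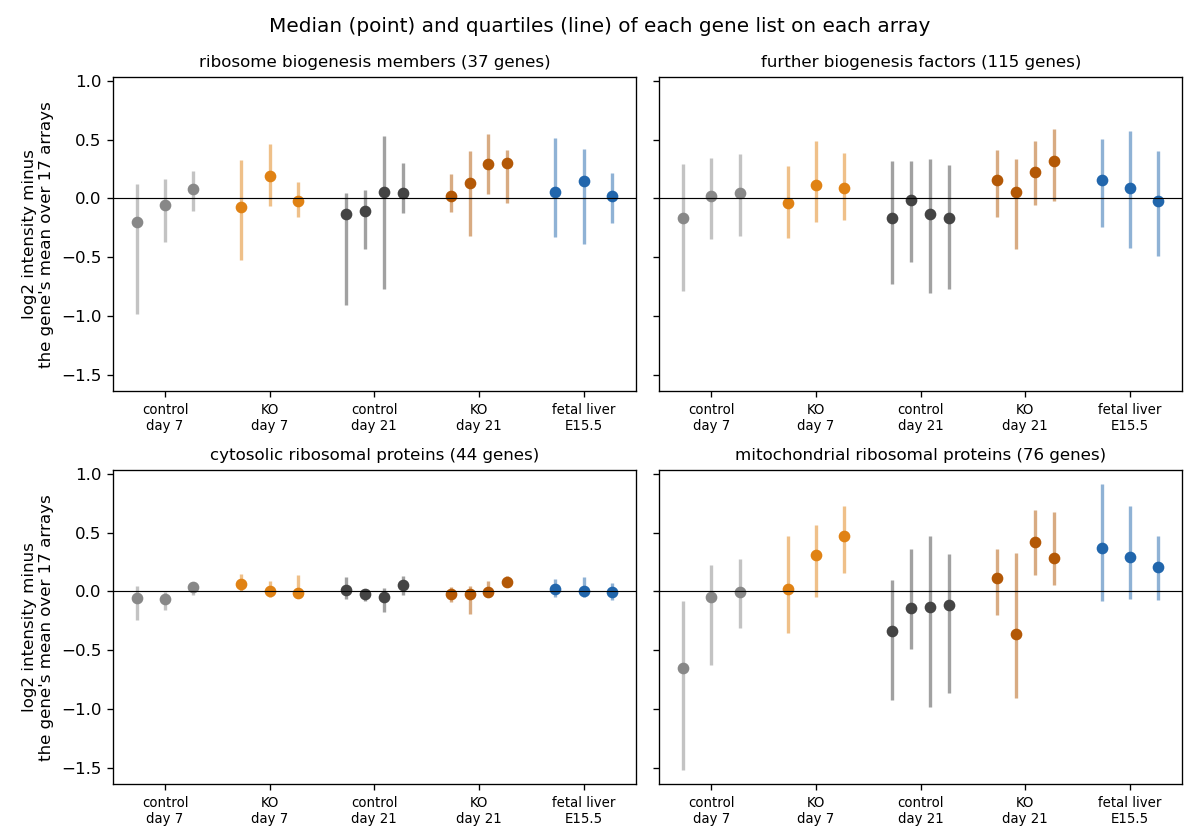
Median (point) and quartiles (line) on each array of log2 intensity minus the gene's mean over the 17 arrays, for the 37 members, 115 further biogenesis factors, 44 cytosolic and 76 mitochondrial ribosomal protein genes. KO replicates 3 and 4 of day 21 have the highest member medians (0.30), and cytosolic ribosomal proteins stay near 0 in every group.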

How the data were processed

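The authors deposited 1 intensity per probe set and array, on a linear scale with a lowest value of 16; RMA is the only tool named, per the submitters' processing notes, without a role or version. Scaling and centring stay unknown. A log2 scale had been planned for, so log2 of the deposited intensity was taken with no pseudocount. Arrays carry no count depth, and their number limits the precision.

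GEO's platform annotation gave the gene names. Of 45101 probe sets, 34958 had 1 gene, 932 several, and 9211 were not listed. Of 18194 genes, 1409 at the floor on all arrays were left out. All 17 arrays entered 1 limma model with a coefficient for each group (limma 3.58.1, R 4.3.3; residual df 12, prior df 1.5), with Benjamini-Hochberg adjustment over 16785 genes and a threshold of 0.05. All p-values are limma's and two-sided. The model was tested on simulated data.

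Full values are given for members called in any comparison and for the 3 of smallest p above the median probe set in each; others appear by role. Members and lists were chosen with earlier results of these data known. Alternatives covered scaling, dim-gene filters, probe set choice, covariates, array weights, a replicate block and leaving out each array. Same-numbered arrays of different groups had a median r of 0.0003 (31 pairs), which pools groups that could not be paired. Control and KO arrays of the same number had r of 0.08, 0.03 and 0.08 at day 7. At day 21 they had 0.02, −0.03, 0.01 and 0.02. Whether the numbers pair arrays within a day is therefore not settled, and the main model holds no pairing. Promoters and names come from RefSeq tables for GRCm38.p6.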

Additional observations from a re-analysis of the deposited data

Results flagged for a closer look

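In 74 sets of 4 arrays (37 genes in 2 groups), the most extreme array stood apart from its neighbour by more than Dixon's 95% critical value in 6 (8.11%), where chance gives about 1 in 20. Bop1 in KO at day 21 was highest on replicate 3 (log2 9.39 against 8.51 on the next array; gap over range 0.961). Rrs1 in KO at day 21 was highest on replicate 4 (11.29 against 9.50; 0.868), and Rrn3 in KO at day 21 on replicate 2 (9.12 against 7.93; 0.848). In control at day 21, Nop16 was highest on replicate 1 (6.31 against 5.92; 0.889) and Nop10 on replicate 4 (12.02 against 11.43; 0.844). Polr1b was lowest on control replicate 3 of day 21 (4.88 against 6.68; 0.834), the array that lay farthest from its group over all genes.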

How the results depend on the processing

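The pooled within-group SD of the member median on single arrays was 0.26 on the log2 scale. That SD describes a level on 1 array, so it does not measure the spread of the median differences of the 37 genes. With centred arrays they went from 0.13 to 0.07 at day 7, 0.35 to 0.19 at day 21 and 0.24 to 0.13 jointly, and turned from −0.07 to 0.05 for fetal liver against KO and from −0.08 to 0.08 between controls. Leaving out an array gave medians of 0.06 to 0.30 at day 7, 0.26 to 0.40 at day 21, 0.15 to 0.30 jointly, 0.04 to 0.30 for the difference between days, 0.08 to 0.23 and −0.16 to 0.00 for fetal liver against control and KO, and −0.09 to 0.04 between controls. Members called in fetal liver against control were 2 with only genes above the median value (Pes1, adjusted p = 0.0499), with the mean of all probe sets (Npm1, 0.45, adjusted p = 0.0332) and with the replicate block plus the floor share (Utp20, 1.78, adjusted p = 0.0494), 0 with only the arrays compared, and 1 to 2 with an array left out. With the replicate block alone the count stayed at 1 (Ddx21, −1.35, adjusted p = 0.00997), and it changed no other call of a member; outside the members, Krr1 and Myc lost their calls against KO (adjusted p = 0.0600 and 0.0663) and Mycn against control (0.0730). Ddx21 kept its call with any 1 array left out (adjusted p up to 0.0437 against control, 0.0373 against KO). Calls over all genes, left-out arrays included, ranged from 0 to 6 at day 7 (0 as reported), 0 to 42 at day 21 (3), 0 to 44 jointly (12), 0 to 2 for the difference between days (0), 241 to 880 and 284 to 650 for fetal liver against control and KO (613 and 426), and 1 to 11 between controls (5). The setting without probe sets of shared sequence was added after seeing the data. The cause of these changes was not tested.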
